A study of Amphimedon queenslandica with 124 samples.

Results

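In the sponge Amphimedon queenslandica, 6 single individuals that all carry the stage label mat-formation were compared by their sample number: the ones numbered 104, 112 and 120 against the ones numbered 103, 111 and 119. They are 6 of the 124 individuals of the series and 6 of its 34 mat-formation individuals. The numbers 101 to 124 form 3 runs of 8, and each run holds, in the order of its numbers, 1 individual at settlement, 3 at mat-formation, and 1 each at chamber-formation, tent-pole-formation, juvenile and adult. The mat-formation individuals are called M1 (102, 110 and 118), M2 (103, 111 and 119) and M3 (104, 112 and 120) here, by their place within the run, and M3 individual 1 is the one of the first run. M3 was compared with M2. The members were taken by number and no expression value entered the rule, but earlier results of these data were known when it was set. The labels give no hour, treatment or genotype for any of them, so that the place of a number in its run is not a labelled time. All were collected singly at Heron Island and staged by morphology.

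Sponge larvae swim, settle on a surface and flatten into a mat of cells in which the larval body plan is taken apart. Larval cells move inwards and take on new fates, and archaeocytes, the motile stem cells of sponges, contribute to the new tissues. The next labelled stage is named for choanocyte chambers, the groups of flagellated collar cells that drive the water flow and feeding of the juvenile and adult.

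Each library is the polyadenylated RNA of 1 individual, counted by CEL-seq, which reads 3′ ends, over 36868 gene models. Total counts were 953600, 1291036 and 1427377 in M3 individuals, and 593086, 1187001 and 1290359 in M2 individuals. Over the 24 libraries numbered 101 to 124 the totals ran from 548828 to 2195894. The main tests left out the 25 mat-formation individuals numbered 1 to 100, whose median total was 32170. Levels are given as CPM, the counts of a gene model scaled to the same total in every library. The gene models carry identifiers that the files do not pair with names, so that functions are not given, and 2 gene models that rose and 2 that fell are described by identifier and no sequence is shown. No marker of a cell type could be looked up, and the labelled stage was not checked in that way. In a whole animal, fewer cells of a type and less RNA per cell cannot be told apart.

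Between M3 and M2 individuals, 37 gene models passed the test. Within this called list, fold changes were larger in those that rose than in those that fell. Of 10825 gene models that passed the filter on low counts, 13 rose in M3 individuals (0.12%) and 24 fell (0.222%), together 0.342%, at an adjusted p below 0.05 (edgeR, quasi-likelihood). Among the 13 that rose, log2 fold changes had a median of 3.04 and a range of 2.11 to 4.87. Among the 24 that fell the median was -1.67 and the range -3.84 to -1.11, and over all gene models tested the median was 0.02. All 37 had CPM values that did not overlap between the groups. Over all gene models tested, values did not overlap in 1614 (14.9%), with M3 individuals higher in 9.66% and lower in 5.25%.

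**Figure D1:**
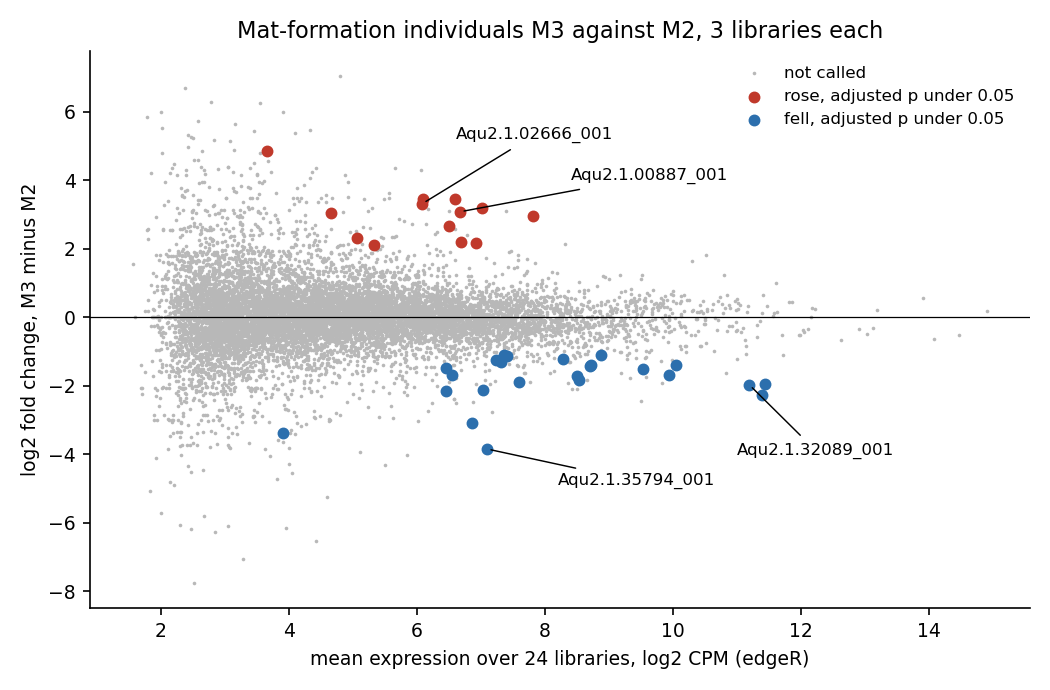
Log2 fold change of M3 over M2 individuals (vertical axis) against mean expression in log2 CPM (horizontal axis) for 10825 gene models, 3 libraries per group. Red points are the 13 gene models that rose and blue points the 24 that fell, with the 4 described gene models labelled. Many gene models with a low mean expression have larger fold changes and were not called.

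At an unadjusted p under 0.05 there were 968 gene models (8.94%), 498 of them higher in M3 individuals (4.6%) and 470 lower (4.34%). Median log2 fold changes were 1.37 in the 498 and -1.27 in the 470, so that the larger size of the called rises was nearly absent here. For 56.3% of gene models the whole 95% interval stayed within 4-fold in either direction, and for 16.7% within 2-fold. Among the 3056 gene models with a mean of at least 50 CPM, these shares were 91.5% and 46.6%. For the gene models outside these shares the interval reached past a 2-fold difference. The number called changed with the libraries fitted, as did the number tested. The 9 mat-formation libraries numbered 101 to 124 gave 32 calls over 8008 gene models, 19 of them among the 37. The 6 libraries compared gave 8 of 7573, and all labelled libraries with at least 100000 counts gave 1 of 13422. Leaving out any one of the 6 libraries gave 3 to 14.

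Of the 13 gene models that rose, Aqu2.1.00887_001 gained the most CPM, and it was high in M3 individuals, low in M2 and high again in M1 individuals. It had 275, 246 and 232 CPM in the M3 individuals, against 23.6, 30.3 and 28.7 CPM in the M2 individuals. Every M3 individual was thus several times above every M2 individual. Means were 251 ± 21.8 CPM in M3 and 27.5 ± 3.50 CPM in M2 individuals (SD, n = 3 each), a log2 fold change of 3.08 (SE 0.39, 95% interval 2.28 to 3.88, edgeR adjusted p = 0.000431). In the fit of all labelled libraries with at least 100000 counts its call was lost (edgeR adjusted p = 0.933). The M1 individuals had 288, 132 and 148 CPM. Chamber-formation individuals had 40.2, 53.3 and 80.2 CPM, and settlement individuals numbered 101 to 124 had 39.4, 40.2 and 59.6 CPM. All 8 embryo and larval stages had means between 23.5 ± 17.7 CPM at late ring and 59.6 ± 35.1 CPM at late spot (SD, n = 7 each). Single embryos of the same stage spread widely, from 7.34 to 126 CPM at cloud and from 6.79 to 116 CPM at ring. None of the chamber-formation and settlement values reached the lowest M1 individual, while the M2 individuals were below all of them.

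Aqu2.1.02666_001, which had the largest fold change among gene models that rose and reached 50 CPM, was likewise high in M3 and M1 individuals and low in M2. It had 263, 144 and 151 CPM in the M3 individuals, against 25.3, 17.7 and 11.6 CPM in the M2 individuals. The means of 186 ± 67.0 CPM in M3 and 18.2 ± 6.85 CPM in M2 individuals (SD, n = 3 each) gave a log2 fold change of 3.32 (SE 0.69, 95% interval 1.89 to 4.75, edgeR adjusted p = 0.0332). The groups did not overlap, but the M3 individuals spread more widely than for Aqu2.1.00887_001. For Aqu2.1.02666_001, M1 individuals had 246, 97.7 and 91.2 CPM, and chamber-formation individuals had 12.2, 31.9 and 51.0 CPM. Its levels in single cloud embryos ran from 6.29 to 116 CPM (n = 7), so that the highest was above the lowest M1 individual. Its call was lost when any of the 6 libraries was left out, at adjusted p values of 0.0769 to 0.235 (edgeR), with log2 fold changes of 2.93 to 3.60. It was also lost in the fit of all labelled libraries with at least 100000 counts (edgeR adjusted p = 1) at a log2 fold change of 3.29.

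Among the gene models that fell, Aqu2.1.35794_001 changed most. It had 14.7, 13.2 and 13.3 CPM in M3 individuals, against 148, 245 and 164 CPM in M2 individuals. The M3 individuals lay close together at 13.7 ± 0.835 CPM, against 186 ± 51.9 CPM in M2 individuals (SD, n = 3 each), a log2 fold change of -3.84 (SE 0.41, 95% interval -4.69 to -3.00, edgeR adjusted p = 4.76e-05). The 3 M3 libraries held 14, 17 and 19 counts of it. It was higher still in M1 individuals, at 648, 511 and 594 CPM, but was at 18.8, 23.2 and 41.3 CPM in settlement individuals numbered 101 to 124. The same gene model was also abundant in embryos, at 234 ± 54.2 CPM at cloud, 235 ± 41.9 CPM at spot, 242 ± 88.0 CPM at late spot and 169 ± 45.9 CPM at ring (SD, n = 7 each). It was lowest at cleavage, at 1.87 ± 2.57 CPM (n = 7), and stood at 17.7 ± 11.5 CPM (n = 13) in free-swimming larvae. Chamber-formation individuals had 27.3, 36.6 and 39.6 CPM, so that M3 individuals had the lowest values of the 24 libraries numbered 101 to 124. Embryo and larval libraries are all numbered 1 to 100, and stage and number set cannot be told apart between them and the libraries compared here.

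Of the 24 gene models that fell, Aqu2.1.32089_001 lost the most CPM. It had 1511, 1009 and 1239 CPM in M3 individuals, against 5884, 3797 and 4248 CPM in M2 individuals. The means of 1253 ± 251 CPM in M3 and 4643 ± 1098 CPM in M2 individuals (SD, n = 3 each) gave a log2 fold change of -1.97 (SE 0.29, 95% interval -2.58 to -1.36, edgeR adjusted p = 0.0033). It took 0.123% of all counts of the M3 individuals and 0.439% of those of the M2 individuals. M1 individuals had 11769, 7744 and 6823 CPM, and chamber-formation individuals had 418, 553 and 607 CPM. M1, M2 and M3 individuals therefore held separate levels in that order, and M3 individuals were above chamber-formation and above settlement individuals numbered 101 to 124 (529, 681 and 699 CPM). The 4 settlement individuals numbered 1 to 100 that had at least 100000 counts ran from 516 to 2986 CPM, and the 3 tent-pole-formation individuals numbered 101 to 124 from 514 to 1028 CPM, so that both overlapped with M3 individuals. In embryos and larvae its mean lay between 30.1 ± 14.3 CPM at cleavage (SD, n = 7) and 285 ± 98.5 CPM (n = 13) in free-swimming larvae. Its call was lost in the fit of all labelled libraries with at least 100000 counts (edgeR adjusted p = 0.933), in the fits of the 6 libraries without and with the run as a block (0.0678 and 0.0536), and without M3 individual 2 or 3 (0.0635 and 0.0527). Its log2 fold change was -1.97, -1.96, -1.96, -1.80 and -1.94 in these fits.

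**Figure D2:**
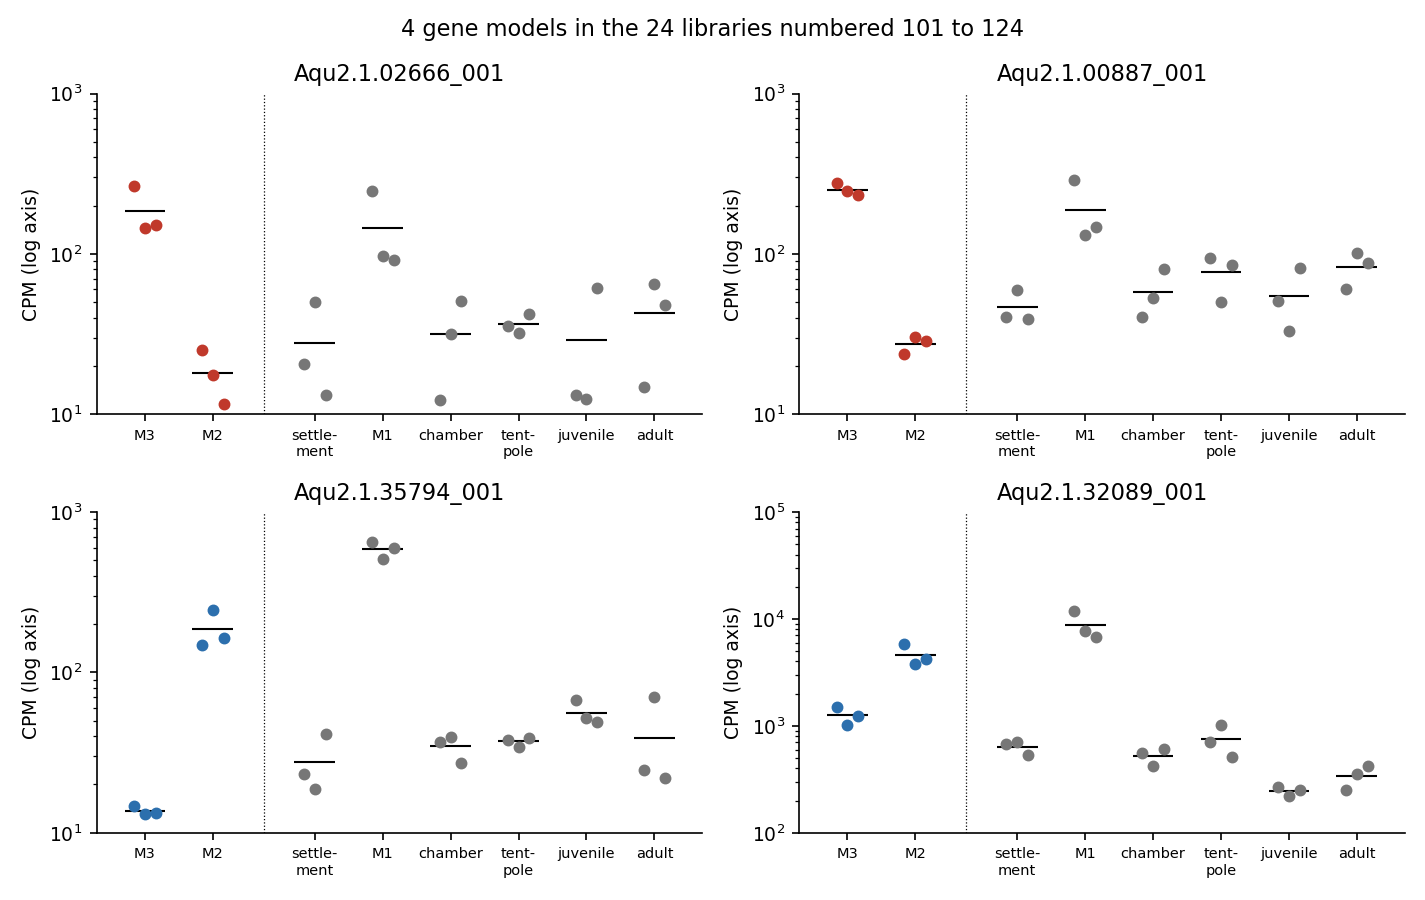
CPM on a log axis of the 4 gene models in the 24 libraries numbered 101 to 124. Points are single individuals, horizontal lines are means, and the M3 and M2 individuals stand in colour left of the dotted line. The upper pair is high in M3 and M1 individuals and lower in every other individual, and the lower pair is highest in M1 individuals.

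The 37 gene models as lists had unlike levels in the other groups. The levels of M3 and M2 individuals selected the lists and are given as a description. The 13 that rose had a median log2(CPM + 1) of 5.87 to 5.99 over the M3 libraries, against 2.68 to 3.47 over the M2 libraries. It was 2.60 to 3.29 in M1 and 1.17 to 2.05 in settlement individuals numbered 101 to 124. Chamber-formation individuals had 6.11 to 6.34, the 3 tent-pole-formation individuals of the runs 5.51 to 6.10 and adults 6.70 to 7.02. The median over all gene models tested lay between 3.80 and 4.58 in every one of the 24 libraries. Within these 24 libraries, the 13 therefore stood below the tested gene models at settlement and in M1 individuals, and above them from chamber-formation on. In the 4 settlement libraries numbered 1 to 100 that had at least 100000 counts, the median over the 13 ran from 0 to 5.62. Over all gene models tested it ran from 2.36 to 4.34 there, so that these libraries did not stand below as a group.

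The 24 that fell went the opposite way. Their median log2(CPM + 1) was 6.53 to 6.88 in M3 libraries, against 7.72 to 7.88 in M2 libraries. It was 8.78 to 9.02 in M1 individuals, 8.66 to 8.88 in settlement individuals numbered 101 to 124, and 6.20 to 6.32 at chamber-formation. In the 4 settlement libraries numbered 1 to 100 that had at least 100000 counts it ran from 6.09 to 8.03. This range covered those of M3 and M2 libraries. In every library the 24 stayed above the median of all gene models tested. Together they took 0.554% to 0.611% of all counts in M3 individuals, against 1.70% to 1.94% in M2 individuals. Their share was 3.68% to 4.04% in M1 individuals and 0.489% to 0.709% at chamber-formation. The 13 that rose took 0.114% to 0.124% of counts in M3 individuals, 0.0139% to 0.0197% in M2 individuals and 0.0298% to 0.0640% in M1 individuals.

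**Figure D3:**
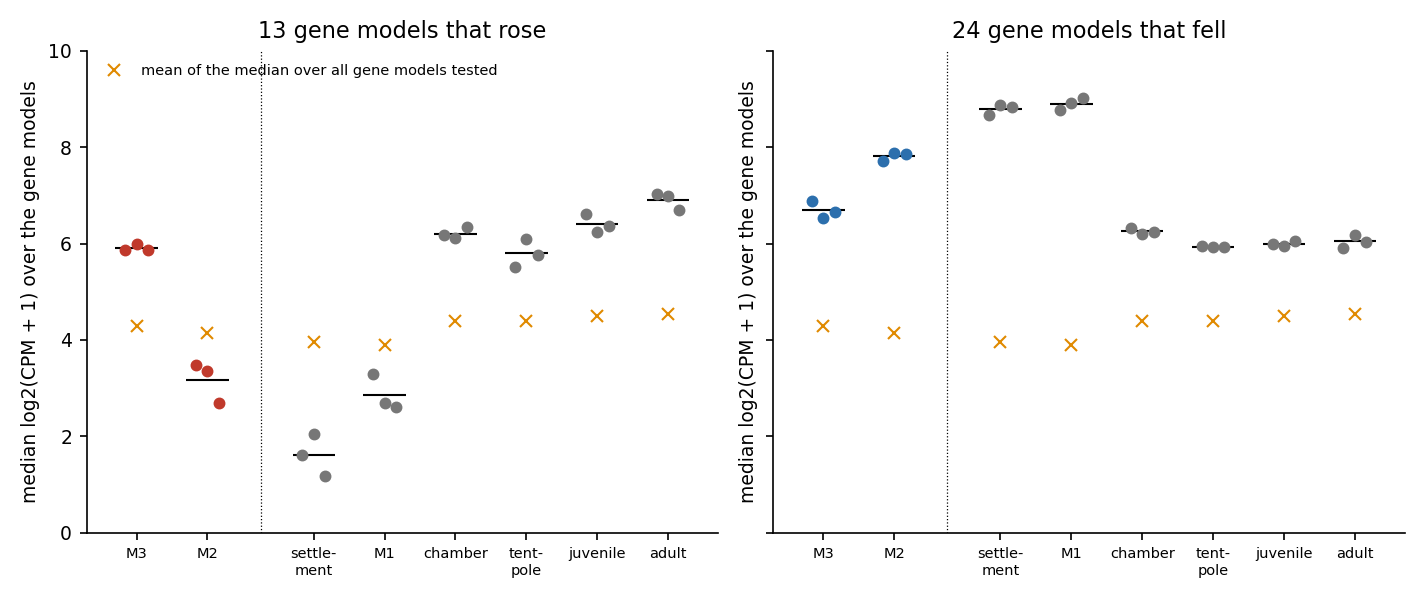
Median log2(CPM + 1) over the 13 gene models that rose (left) and the 24 that fell (right) in the 24 libraries numbered 101 to 124. Points are libraries, lines are group means, and orange crosses are the group means of the median over all gene models tested. M3 individuals (5.87 to 5.99 on the left) sit within the range of tent-pole-formation individuals (5.51 to 6.10) and below chamber-formation individuals (6.11 to 6.34), while M2 individuals (2.68 to 3.47) overlap with M1 individuals (2.60 to 3.29).

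For the 24 that fell, the groups with the highest levels, M3 and M2 individuals left out, differed from those of the tested gene models. Among the 6 other groups numbered 101 to 124, 14 of the 24 that fell were highest in M1 individuals (58.3%, against 14.3% of all tested). Another 9 were highest at settlement (37.5%, against 15.6%) and 1 at tent-pole-formation (4.17%, against 15.2%). In 12 of the 24, the M1 individuals had a mean at least 2-fold above each of the 5 remaining groups, a pattern held by 2.95% of the gene models tested. Of the 13 that rose, 6 were highest in adults (46.2%, against 23.4% of all tested) and 3 in juveniles (23.1%, against 16.2%). Another 2 were highest at chamber-formation (15.4%, against 15.3%), near the share of all tested. The last 2 were highest in M1 individuals (15.4%, against 14.3%, again near the share of all tested), and these are Aqu2.1.00887_001 and Aqu2.1.02666_001.

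In embryos and larvae both lists were again unlike each other. Of the 13 that rose, 7 had a mean under 10 CPM in each of the 8 embryo and larval stages (53.8%, against 28.1% of all tested). Of the 24 that fell, 1 did. The median log2 level of the 24 was 5.23 at cleavage, 7.90 at late ring and 8.14 in free-swimming larvae, where the median over all tested was 3.16, 2.75 and 2.95. In 6 of the 24 the larval mean was at least 2-fold above that of M1 individuals (25.0%, against 18.6% of all tested). The 13 that rose had medians of 2.07, 1.25 and 1.21 at the same 3 stages.

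Whether the gene models that differed between M3 and M2 individuals also differed between chamber-formation and M1 individuals was asked in libraries that this contrast does not use. Chamber-formation individuals were compared with M1 individuals in the same fit, 3 libraries each, a comparison added after the values were seen. It shares no library with the other contrast, but it does share its scaling and its estimate of the spread. It called 1985 of 10825 gene models (18.3%), of which 1107 were higher at chamber-formation (10.2%) and 878 were lower (8.11%). Of the 24 that fell in M3 individuals, 23 were called lower at chamber-formation and 0 higher, and the remaining 1 was lower without passing the test. Of the 13 that rose, 11 were called higher at chamber-formation. In the fit of all labelled libraries with at least 100000 counts, 453 of 13422 gene models were called in this comparison. There, 5 of the 13 were called higher and 19 of the 24 were called lower. In the fit of 24 libraries, the other 2, Aqu2.1.00887_001 and Aqu2.1.02666_001, were called lower, with log2 fold changes of -2.09 (SE 0.37) and -2.61 (SE 0.66) and edgeR adjusted p values of 0.000335 and 0.00722.

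The gene models short of the threshold leaned the same way. Another 485 were higher in M3 individuals at an unadjusted p under 0.05 without being called. Of these, 397 were higher at chamber-formation than in M1 individuals (81.9%, against 52.6% of all tested). The test called 221 of them higher (45.6%, against 10.2%) and 10 lower. Another 446 were lower in M3 individuals at an unadjusted p under 0.05, of which 327 were lower at chamber-formation (73.3%, against 47.2% of all tested). The test called 196 of them lower (43.9%, against 8.11%) and 9 higher. The median log2 fold change of chamber-formation over M1 individuals was 1.25 in the 485 and -0.90 in the 446, against 0.08 over all gene models tested.

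**Figure D4:**
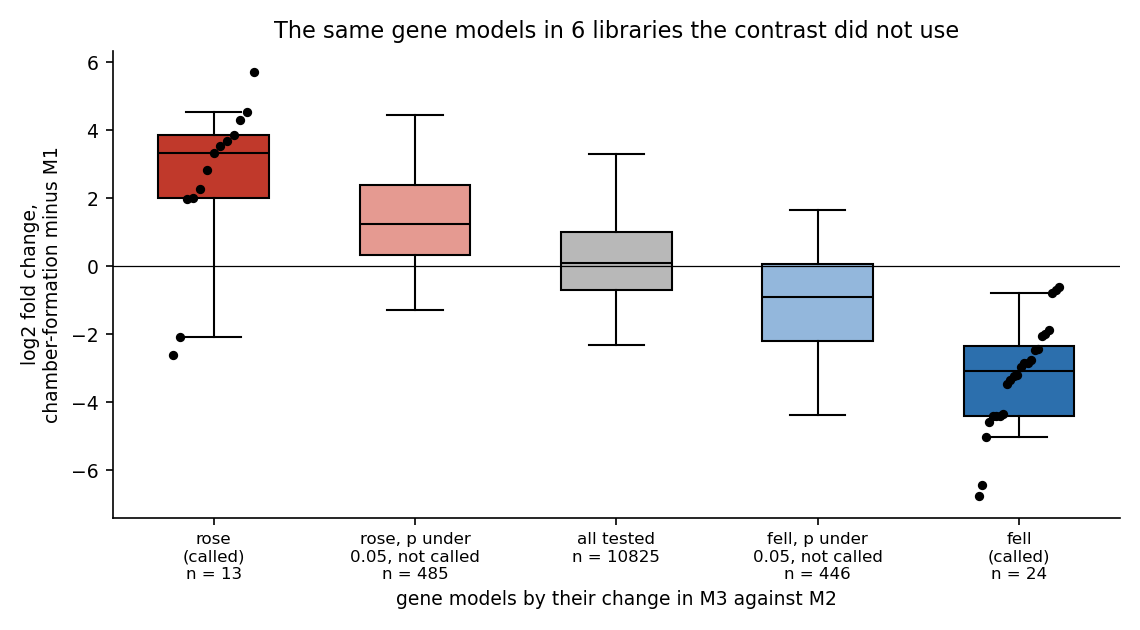
Log2 fold change of chamber-formation over M1 individuals (vertical axis) for gene models grouped by their change in M3 against M2 individuals (horizontal axis). Boxes span the quartiles with the median as a line, whiskers the 5th to 95th percentile, and dots are single gene models of both called lists. The medians run from 3.33 for the 13 that rose to -3.08 for the 24 that fell, with 0.08 over all tested.

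The whole transcriptomes of M3 and M2 individuals overlapped in similarity. Over 9691 gene models with a mean of at least 5 CPM, the median Spearman correlation of a pair of libraries was 0.892 within M3 individuals and 0.864 within M2 individuals. Between M3 and M2 individuals it was 0.857, and single pairs ran from 0.845 to 0.905. The closest of these pairs, M3 individual 2 with M2 individual 2, was also the closest of all pairs within or between both groups. Of the 6 libraries, M3 individuals 1 and 3 and M2 individual 3 had their closest match in their own group, and M3 individual 2 and M2 individuals 1 and 2 had it in the other. M2 individual 1 was the shallowest of the 6. Gene models are not independent replicates, and these correlations run across them.

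All 3 M3 individuals had higher correlations with chamber-formation than any M2 individual, a difference that so few libraries cannot bring past the threshold. The median correlation of each library with the 3 chamber-formation libraries was 0.815, 0.816 and 0.812 in M3 individuals, against 0.775, 0.789 and 0.779 in M2 individuals. The groups did not overlap, and the exact two-sided permutation p was 0.1, the smallest that 3 against 3 libraries allow. With the M1 individuals as the partner, the medians were 0.843, 0.865 and 0.817 in M3 individuals, against 0.836, 0.902 and 0.856 in M2 individuals. These values overlapped (exact two-sided permutation p = 0.5). Over the 3185 gene models with a mean of at least 50 CPM they did not overlap, at 0.737, 0.785 and 0.736 in M3 individuals, against 0.802, 0.870 and 0.855 in M2 individuals (exact permutation p = 0.1, the smallest possible). With all libraries thinned to 500000 counts, the mean similarity to chamber-formation was 0.797 ± 0.00402 in M3 individuals and 0.769 ± 0.0112 in M2 individuals (SD, n = 3 each; exact permutation p = 0.1). Both similarities were added after the values were seen, and each reads the same chamber-formation or M1 libraries for both groups.

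**Figure D5:**
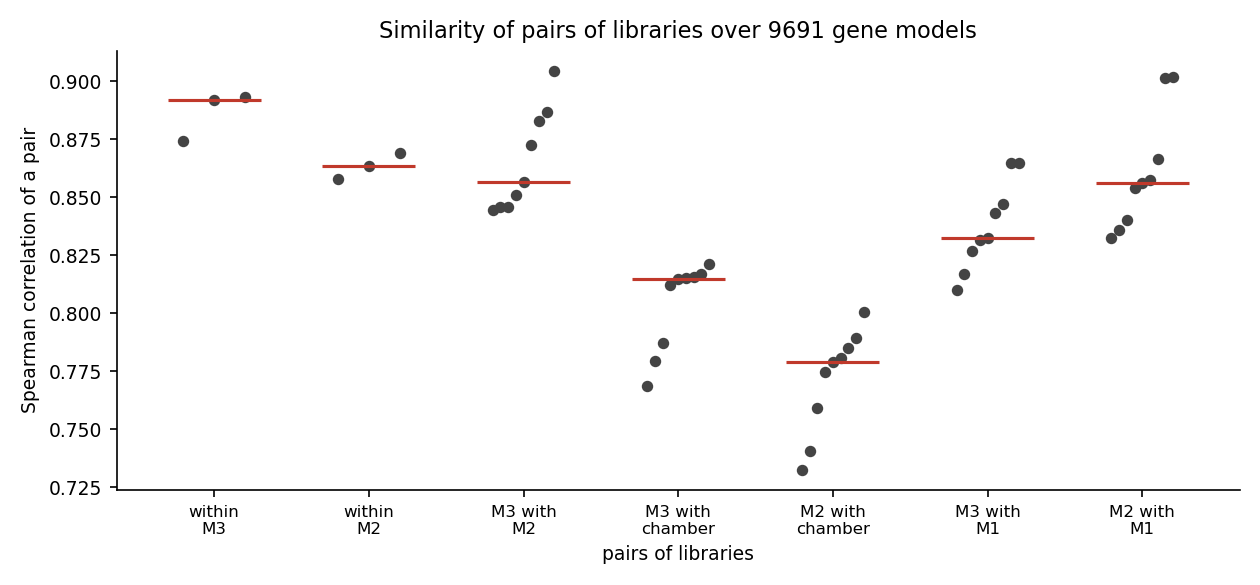
Spearman correlations (vertical axis) of pairs of libraries by the groups they come from (horizontal axis), over 9691 gene models. Points are pairs and red lines medians. Pairs of M3 with M2 individuals (0.845 to 0.905) cover the range of pairs within either group, and pairs of M3 with chamber-formation individuals have a median of 0.815, against 0.779 for M2 with chamber-formation individuals.

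The number of gene models with a count and the concentration of the counts were compared over 3 against 3 libraries, which cannot give a p under 0.1. Thinned to 500000 counts, M3 individuals had 13649, 14207 and 13810 gene models with a count, against 12893, 13276 and 13787 in M2 individuals. Means were 13889 ± 287 in M3 and 13319 ± 449 in M2 individuals (SD, n = 3 each), and the groups overlapped (exact two-sided permutation p = 0.2). At 100000 counts the numbers were 8650, 8942 and 8781 in M3 individuals, against 8358, 8488 and 8499 in M2 individuals, without overlap (exact permutation p = 0.1). Gene models with at least 5 counts, at 500000 counts per library, numbered 7237, 7269 and 7249 in M3 individuals, against 6912, 7039 and 6815 in M2 individuals, also without overlap (exact permutation p = 0.1). The 10 most abundant gene models of each library held 13.3% ± 2.65 of the counts in M3 individuals and 14.0% ± 1.54 in M2 individuals (exact permutation p = 0.8). The same gene model was the most abundant in 4 of the 6 libraries.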

How the data were processed

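The authors deposited 1 table of raw counts from CEL-seq, whole numbers with no normalization, with a row for each gene model and a column for each individual. Per the submitters' processing notes, HTSeq 0.5.4p3, Bowtie2 2.1.0 and CASAVA 1.8 were used. Not given in the sources used here are the settings, the build, the gene annotation and whether molecular identifiers were counted, and near-identical or overlapping gene models may share reads. The table ends within its last line, which was left out, and 0 columns belonged to no individual. The reference gene table matched 0 identifiers, and lists of gene symbols were therefore not applied.

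Groups follow the numbers in the sample titles. The 24 libraries numbered 101 to 124, 8 groups of 3, were fitted together by the quasi-likelihood method of edgeR 4.0.16 (R 4.3.3) after TMM scaling. Low gene models were removed by filterByExpr, whose minimum was 10 counts and whose minimum total was 15. Tests were two-sided with Benjamini-Hochberg adjustment over all gene models tested, and an adjusted p under 0.05 counted as called. The fit was tried on simulated counts that gave every gene model the same spread. Only gene models with at least 50 CPM were changed in them, so that lower levels and unlike spreads were not covered. DESeq2 1.42.0 was an alternative. Nothing says that individuals share a parent or a day, and p-values measure the spread between individuals. Exact permutation tests used scipy 1.17.1 and thinning numpy 2.4.6.

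Described gene models were those with the largest fold change and with the largest CPM difference, or the next where these coincided, in each direction, among called gene models without overlap and with at least 50 CPM in the higher group. The individuals compared, lists and rules were chosen with earlier results of these data known.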

Additional observations from a re-analysis of the deposited data

Results flagged for a closer look

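Of 32 stage groups of 4 to 10 libraries examined for the 4 described gene models, 3 held a library far above the rest, and about 1 in 20 such groups would by chance. Aqu2.1.02666_001 was at 79.5 CPM in 1 of 7 ring libraries, with the next at 36.6 CPM. Aqu2.1.00887_001 was at 115 CPM in 1 of 7 spot libraries, with the next at 43.0 CPM. Aqu2.1.32089_001 was at 446 CPM in 1 of 7 late ring libraries, with the next at 199.9 CPM.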

How the results depend on the processing

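The number of gene models called was 37, with 13 that rose and 24 that fell, and it moved with most choices. The fits also differed in the gene models they held, 10825 in the main one. DESeq2's Wald test called 188 of 36868 (80 rose and 108 fell, and in this order below). With every gene model that had a count kept, edgeR called 230 of 29406 (104 and 126). A count minimum of 30 gave 56 of 7171, of which 38 fell. Only the 6 libraries compared gave 8 of 7573 (7 and 1). All labelled libraries with at least 100000 counts gave 1 of 13422 (0 and 1), with 327 at an unadjusted p under 0.05. Thinned to the lowest total, 8 rose. Without the 2 shallowest libraries, a choice made after seeing the data, 15 were called (3 and 12). Leaving out M3 individual 1, 2 or 3 gave 10, 3 and 3 calls, and leaving out M2 individual 1, 2 or 3 gave 14, 10 and 5. Over these 6 fits, 1 to 3 rose and 2 to 12 fell. All but 1 of these calls, in the fit without M2 individual 1, were among the 37. Of the 37, 37 were called with DESeq2's size factors, 36 with its Wald test and 31 without a filter.

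With the run as a replicate block, 42 were called in the fit of 24 libraries, 36 of them among the 37, and 3 (2 and 1) in the fit of 6 libraries. The correlation of deviations between M3 and M2 individuals of the same run was 0.0138, 0.251 and 0.0333. M3 individual 3 correlated best with the M2 individual of another run (0.204), so that the runs were not treated as pairs.

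No fold change of the 4 described gene models changed sign in 18 alternatives. Aqu2.1.35794_001 was called in 18, Aqu2.1.00887_001 in 17, Aqu2.1.32089_001 in 13 and Aqu2.1.02666_001 in 10. Chamber-formation against M1 individuals called 453 in the fit of all labelled libraries with at least 100000 counts, and 1378 to 1964 with a library left out. Of the 13 that rose, 5 were called higher at chamber-formation in that same fit, and 10 to 11 with a library left out. The share of the 10 most abundant gene models reversed, to 0.54 percentage points higher in M3 individuals, without M3 individual 2, and the difference ran from -2.10 to 0.54 over the libraries left out. The difference in gene models detected ran from 357 to 804. The median correlation with a minimum of 50 CPM was 0.870 within M3 individuals and 0.822 between the groups, and at 500000 counts it was 0.870 within M3 and 0.845 within M2 individuals. The cause of these shifts was not tested. With these depths and 3 libraries per group, the interval stayed within 4-fold for 56.3% of all tested and for 91.5% of those with at least 50 CPM, and what depth and the spread between individuals each add to it was not tested.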

Other observations

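The other 25 mat-formation individuals, numbered 1 to 100, did not enter the main fit and are given as values. Those with at least 100000 counts were a group of their own in the fit of all labelled libraries. In these 3, the 13 gene models that rose in M3 individuals took 0.0310%, 0.0613% and 0.121% of the counts. The share was 0.114% to 0.124% in M3, 0.0139% to 0.0197% in M2 and 0.0298% to 0.0640% in M1 individuals. The 24 that fell took 0.570%, 0.461% and 0.280% in the same 3 libraries, against 0.554% to 0.611% in M3 and 1.70% to 1.94% in M2 individuals. All 3 were thus far below M2 individuals for the 24. For the 13 they lay either between M2 and M3 individuals, which is within the M1 range, or within the M3 range. Summed over all 25 libraries, which are unlike in depth, the 1248493 counts held 0.105% for the 13 and 0.795% for the 24. In 1 of the 3 libraries the median log2(CPM + 1) over all gene models tested was 0, and medians over the lists are therefore not compared with those of deeper libraries.

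Some of the 37 gene models have identifiers close in number. Of the 13 that rose, 3 have identifiers 16 and 3 numbers apart, and of the 24 that fell, 2 have identifiers 2 numbers apart, one of them Aqu2.1.35794_001. Whether close numbers mean neighbouring genes is not given in the sources used here.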
